A study of Arabidopsis thaliana with 45 samples.

Results

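Of the 27587 loci in a transcript table of Arabidopsis thaliana seeds, 10 loci were chosen by locus number because their products carry nitrate or glucosinolates or, for NRT3.1, assist such carriers. NRT3.1 is counted among the carrier genes below, although it is a partner protein and not a carrier. They are NPF6.3 (AT1G12110), NRT2.1 (AT1G08090), NRT2.2 (AT1G08100), NRT2.4 (AT5G60770), NRT2.5 (AT1G12940), NRT2.6 (AT3G45060), NRT2.7 (AT5G14570), NRT3.1 (AT5G50200), NPF2.10 (AT3G47960) and NPF2.11 (AT5G62680). RNA was sequenced from entire Col0 seeds in 45 libraries, which form 16 groups of 4 genotypes and 4 treatments. The genotypes are the quadruple mutant cyp79B2 cyp79B3 myb28 myb29 (qko), the double mutant myb28 myb29 (myb), the double mutant cyp79B2 cyp79B3 (cyp) and the wild type (WT). Seeds were imbibed for 6 h in 10 mM KNO3, in 8 µM KSCN or in water, or stayed dry. Of the 16 groups, 13 held 3 libraries, and dry myb, myb in KNO3 and cyp in KSCN held 2. The labels give a growth protocol on agarose for all samples without saying if replicates are separate plants. A p therefore covers the spread among the sequenced samples, which may be technical.

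Nitrate enters plant cells through carriers of the NPF and NRT2 families, and it also acts as a signal that promotes germination. NPF6.3, also called NRT1.1, is a carrier of both high and low affinity and a nitrate sensor. NRT2 proteins are carriers of high affinity, most of which work with the small partner protein NRT3.1, while NRT2.7 sits in the vacuole membrane of seeds and loads nitrate there. NPF2.10 (GTR1) and NPF2.11 (GTR2) belong to the same family as NPF6.3 but import glucosinolates, sulfur-rich defence compounds that move from the mother plant into the seed. MYB28 and MYB29 switch on synthesis of aliphatic glucosinolates, and CYP79B2 and CYP79B3 make the precursor of the indolic ones.

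Library totals ran from 18097331 to 22910834 estimated counts. Replicate 7 of imbibed qko stood apart in KNO3, water and KSCN, as did replicate 6 of WT in KNO3. Their mean distance to their own group, as a root mean square over log2 values of all tested loci, was 1.53 to 1.93 times that among the other libraries of the group. Loss of transcript from the mutated genes did not check the labels. MYB28 had no count in any of the 45 libraries. MYB29 had counts in 17 libraries (at most 14), all imbibed and labelled myb or qko. In edgeR's quasi-likelihood test after water, MYB29 exceeded WT in myb (log2 fold change 5.24, adjusted p = 0.00857). In qko it did not pass (adjusted p = 0.0509). CYP79B3 exceeded WT in cyp (4.22, adjusted p = 7.12e-10) and qko (adjusted p = 0.000735), not in myb (adjusted p = 0.237). CYP79B2 exceeded WT in cyp and myb (adjusted p 0.0104 and 0.0277), not in qko (adjusted p = 0.24). After water, MYB29 in myb and CYP79B3 in cyp and qko thus stood higher than in WT, for a cause not tested. Genotypes are named as the libraries are labelled. All 9 seed storage and oil body markers were present. Their sum was 14343 to 22734 CPM (counts scaled to library size) in cyp-labelled seeds after water, 42922 to 53590 CPM in qko, 56722 to 62211 CPM in myb and 102705 to 105421 CPM in WT. In dry seeds it was 215829 to 246503 CPM in qko, 226420 to 242219 CPM in myb, 142914 to 155614 CPM in cyp and 311344 to 351869 CPM in WT. Green tissue markers, of which 2 of 5 exceeded 1 CPM, summed to 84.1 to 132 CPM in cyp-labelled seeds after water. In WT they summed to 13.4 to 17.3 CPM after water, in qko to 10.4 to 19.0 CPM and in myb to 11.7 to 15.1 CPM. In dry seeds they summed to 29.7 to 33.2 CPM in qko, 18.3 to 28.0 CPM in myb, 40.7 to 46.4 CPM in cyp and 31.1 to 44.65 CPM in WT, so dry cyp overlapped dry WT. Seed coat markers, of which 1 of 4 exceeded 1 CPM, summed after water to 14.2 to 17.1 CPM in qko, 9.83 to 10.2 CPM in myb, 6.87 to 8.20 CPM in cyp and 7.21 to 8.89 CPM in WT. In dry seeds they summed to 10.3 to 12.2 CPM in qko, 8.82 to 9.88 CPM in myb, 6.31 to 8.26 CPM in cyp and 6.44 to 7.03 CPM in WT, so qko and myb lay above WT in both states. The 1 marker of micropylar endosperm had 5101 to 10154 CPM in qko after water, 2948 to 5955 CPM in myb, 1712 to 3391 CPM in cyp and 5451 to 5700 CPM in WT. In dry seeds it had 17565 to 35479 CPM in qko, 12503 to 37409 CPM in myb, 6939 to 19628 CPM in cyp and 16085 to 18407 CPM in WT. The part of these differences in the results on carriers was not tested, and in whole seeds fewer cells of a type cannot be told apart from less RNA per cell.

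Transcripts of 7 of the 10 loci were abundant enough to test, and those of the NRT2 genes known mainly for root uptake were at or near 0. NRT2.1, the main carrier of high affinity in roots, had 49 counts in all, spread over 18 libraries and at most 11 in any of them. Libraries labelled qko held 2 of these counts, myb 2, cyp 33 and WT 12. Its adjacent copy NRT2.2 and the starvation-induced carrier NRT2.4 had 1 count each over all 45 libraries. At a floor of 3 counts in a library, these genes were not detectable at this depth in most libraries. NRT2.1 and NRT2.2 share 305 stretches of 31 bases in their reference transcripts, which is 14.7% of those of NRT2.1 and 18.2% of those of NRT2.2, so the split of their few reads is uncertain. Every other pair of the 10 shared at most 8 such stretches.

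NRT2.7 exceeded all the other carriers in every library. On the scale of CPM per kb of transcript it made 98.3% of the summed level of the 10 loci in dry qko-labelled seeds, 95.3% in qko after water, 96.2% in dry myb and 90.01% in myb after water. The same share was 88.8% in dry cyp-labelled seeds and 67.8% in cyp after water, against 93.5% in dry WT seeds and 82.1% in WT after water. Over single libraries it lay between 65.8% and 98.4%. In WT water seeds NRT2.7 stood at 204 CPM per kb and NRT3.1 followed with 18.4 CPM per kb. NPF2.10 had 13.2 CPM per kb there (5.33% of the sum), NPF6.3 had 5.72, NPF2.11 had 3.54, NRT2.5 had 2.48 and NRT2.6 had 1.35 CPM per kb.

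**Figure D1:**
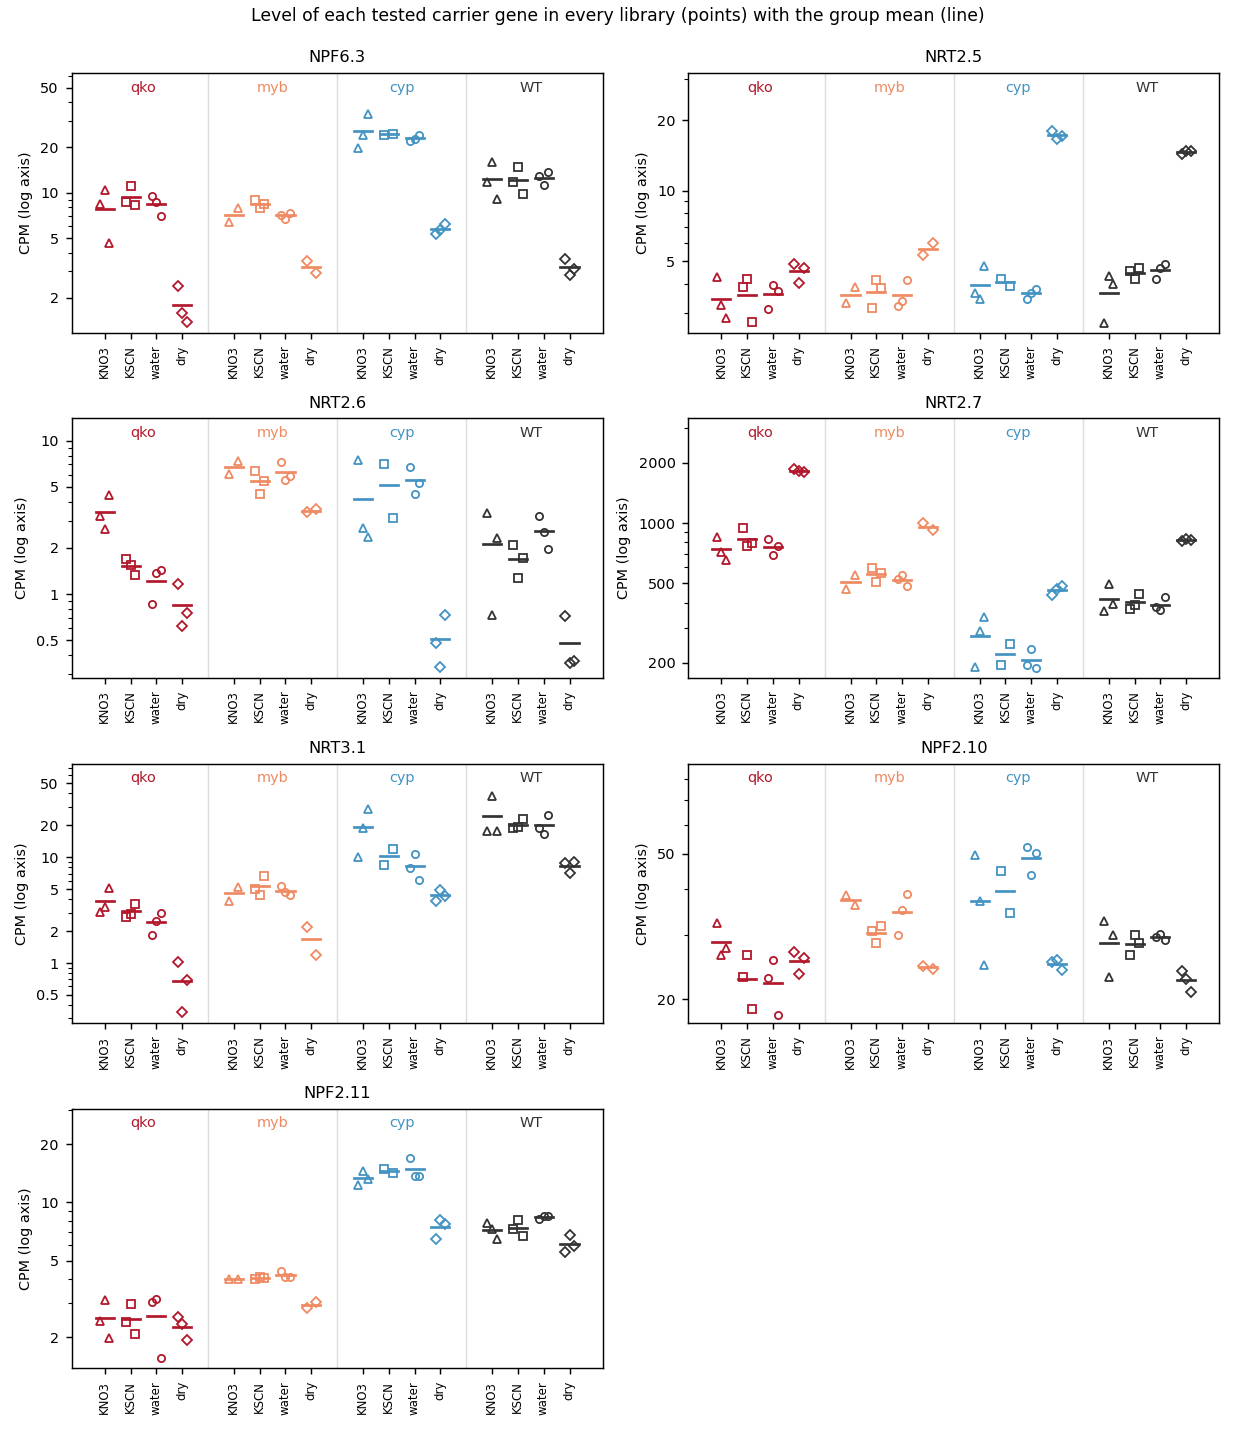
Level of the 7 tested carrier genes in each of the 45 libraries, in CPM on a log axis, by labelled genotype and treatment. Points are libraries and lines are group means. NRT2.7 is highest in dry qko seeds (1804 to 1861 CPM), and NRT2.5 stands high in dry cyp and WT seeds but not in imbibed ones.

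Within 6 h of imbibition in water, WT seeds gained transcripts of the nitrate sensor NPF6.3, of NRT2.6 and of the NRT2 partner NRT3.1, and lost transcripts of NRT2.5 and NRT2.7. The glucosinolate importers NPF2.10 and NPF2.11 rose by less. All 7 tested loci passed, 5 higher and 2 lower, where 70.6% of all 18066 tested loci passed (37.1% higher and 33.5% lower). The median log2 fold change was 0.46 over the 7 loci and 0.08 over all loci. A call is an adjusted p under 0.05 in edgeR's quasi-likelihood test with Benjamini-Hochberg adjustment, and all adjusted p given for fold changes are of this kind unless another fit is named. The count of carriers is near what the background share gives, so the directions and sizes are what these data add. Changes are relative to trimmed-mean (TMM) scaling. With libraries scaled to their total counts the median of all loci for water against dry moved to 0.81 in qko, 0.75 in myb, 0.78 in cyp and 0.83 in WT (log2).

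NPF6.3 had 12.9, 11.2 and 13.7 CPM in WT seeds after water, against 3.65, 2.84 and 3.13 CPM in dry WT seeds. The groups did not overlap (log2 fold change 1.97 ± 0.24 SE, adjusted p = 4.09e-09). NRT2.6, an NRT2 carrier of low abundance, had 3.23, 2.55 and 1.96 CPM after water and 0.715, 0.355 and 0.364 CPM in dry WT seeds. Those dry values rest on 5 to 10 counts per library, and the change was 2.42 ± 0.54 (adjusted p = 0.000151). NRT3.1 had 18.8, 16.7 and 25.2 CPM after water, against 8.87, 7.03 and 8.96 CPM in dry WT seeds, again without overlap (1.29 ± 0.29, adjusted p = 0.000208).

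NRT2.7, the seed vacuole carrier, had 379, 369 and 426 CPM in WT after water and 811, 834 and 822 CPM in dry WT seeds. All dry libraries lay above all water libraries (log2 fold change -1.07 ± 0.14, adjusted p = 4.26e-08). NRT2.5, a carrier known from nitrogen-starved plants, had 4.19, 4.68 and 4.89 CPM after water, against 14.3, 14.8 and 14.7 CPM in dry WT seeds. It fell the most of the 7 on the log2 scale (-1.67 ± 0.15, adjusted p = 6.81e-12). For NPF2.10 the values were 29.5, 30.2 and 29.1 CPM after water and 23.9, 22.7 and 20.9 CPM dry, without overlap. Its rise of 0.40 ± 0.16 (adjusted p = 0.0283) did not pass when dry WT replicate 8 or 9, or WT replicate 5 or 8 in water, was left out (adjusted p 0.0507 to 0.106), nor in DESeq2 (adjusted p = 0.0509). NPF2.11 had 8.21, 8.51 and 8.55 CPM after water, against 5.51, 6.82 and 5.97 CPM dry (0.46 ± 0.16, adjusted p = 0.00934). This call needed replicate 5 of dry WT (without it, adjusted p = 0.0563).

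Imbibition was also tested in each mutant. In libraries labelled cyp all 7 passed, 5 higher and 2 lower, where 79.7% of all loci passed (40.8% higher and 38.9% lower). In myb 4 were higher and 2 lower, where 66.2% of all loci passed (34.8% higher and 31.3% lower), and in qko 2 were higher and 1 lower, where 69% passed (36.9% higher and 32.2% lower). Under total-count scaling the split became 5 higher and 0 lower in myb, and 6 higher and 1 lower in qko. The response of a mutant was then tested against that of WT, which is shared by the 3 tests.

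NRT2.5 differed from WT in its response to water in all 3 mutants. It had 3.13, 3.97 and 3.75 CPM in qko after water and 4.86, 4.05 and 4.69 CPM in dry qko, and these ranges lay next to each other without overlap. Its log2 fold change in qko was -0.32 ± 0.17 (adjusted p = 0.0866), and 0.40 under total-count scaling, where its direction turned. The response in qko exceeded that of WT by 1.35 ± 0.23 (log2, adjusted p = 2.43e-05). In myb NRT2.5 had 3.23, 3.38 and 4.15 CPM after water, against 5.30 and 6.00 CPM dry (-0.66 ± 0.18, adjusted p = 0.00187), a response 1.01 ± 0.24 above that of WT (adjusted p = 0.00403). The change in myb turned to 0.0225 under total-count scaling and missed the threshold with a replicate block (-0.56, adjusted p = 0.0573). In cyp-labelled seeds NRT2.5 had 3.47, 3.66 and 3.82 CPM after water, against 18.02, 16.6 and 17.2 CPM dry (-2.24 ± 0.15, adjusted p = 9.64e-16). The response in cyp lay 0.57 below that of WT (-0.57 ± 0.21, adjusted p = 0.0337), and this call was lost without any of 8 single libraries (cyp dry 7 and 9, cyp water 7, WT dry 5, 8 and 9, WT water 8 and 9, adjusted p 0.0541 to 0.0824) and with RLE size factors (-0.50, adjusted p = 0.0661).

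NPF2.10 split the mutants. It had 22.8, 25.6 and 18.2 CPM in qko after water, against 26.9, 23.4 and 26.0 CPM in dry qko, and these ranges overlapped (log2 fold change -0.20 ± 0.16, adjusted p = 0.281). Under total-count scaling its direction turned to 0.53. In cyp-labelled seeds it had 52.3, 43.6 and 50.3 CPM after water, against 25.3, 25.7 and 24.0 CPM dry (0.96 ± 0.16, adjusted p = 1.07e-06). Against the WT response the difference was -0.59 ± 0.23 in qko (adjusted p = 0.0491) and 0.57 ± 0.22 in cyp (adjusted p = 0.0469). The qko difference was lost without any of 10 single libraries (qko dry 4 and 7, qko water 4 and 7, all WT dry and WT water libraries, adjusted p 0.0548 to 0.14). The cyp difference was lost without any of 10 (all cyp dry libraries, cyp water 7 and 9, WT dry 5 and 8, all WT water libraries, adjusted p 0.0608 to 0.102). Both were also lost without the filter on low counts and under total-count scaling (adjusted p 0.0541 to 0.0697), and the qko one with RLE size factors (adjusted p = 0.0507). In myb NPF2.10 rose by 0.50 ± 0.18 (adjusted p = 0.0141), a call lost without replicate 5 or 9 of dry myb or replicate 9 of myb in water (adjusted p 0.0622 to 0.0944).

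The other responses to water had the sign of WT. NPF6.3 rose by 2.24 in qko, 1.13 in myb and 2.0 in cyp (log2, adjusted p 2.69e-09, 0.000514 and 9.92e-11). NRT2.7 fell by 1.26 in qko, by 0.88 in myb and by 1.16 in cyp (adjusted p 1.46e-09, 7.99e-06 and 4.94e-09), and in myb its change was -0.20 and did not pass under total-count scaling (adjusted p = 0.191). NRT3.1 rose by 1.83 in qko, 1.52 in myb and 0.92 in cyp (adjusted p 0.00164, 0.00288 and 0.00741). Its call was lost without replicate 9 of dry myb (adjusted p = 0.0832) and, in cyp, without replicate 8 of water (adjusted p = 0.0615). NRT2.6 rose by 3.42 in cyp (adjusted p = 2.79e-08), while its values of 0.53 in qko and 0.84 in myb did not pass (adjusted p 0.37 and 0.0689). NPF2.11 rose by 0.996 in cyp and 0.51 in myb (adjusted p 1.88e-07 and 0.0265). In qko it did not pass at 0.20 (adjusted p = 0.37) but did without replicate 7 of qko in water (0.46, adjusted p = 0.0218). In myb its call was lost without replicate 5 or 9 of dry myb or replicate 6 of water (adjusted p 0.0591 to 0.158). In the differences from the WT response, 1 carrier was higher and 1 lower in qko (27.7% of all loci passed, 14.1% higher and 13.6% lower). There was 1 higher in myb (11.5%, 5.39% higher and 6.14% lower), and 1 higher and 1 lower in cyp (35.2%, 12.3% higher and 22.8% lower), which are the NRT2.5 and NPF2.10 differences above. For NPF2.11 in cyp the difference of 0.53 did not pass (adjusted p = 0.0534) but did with RLE size factors, in DESeq2, with a replicate block and with these groups fitted alone (0.53 to 0.61, adjusted p 0.0113 to 0.0271). For NRT2.6 in qko it was -1.88 (adjusted p = 0.0705) and passed in all of these except that with RLE size factors (adjusted p 0.00668 to 0.0216).

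**Figure D2:**
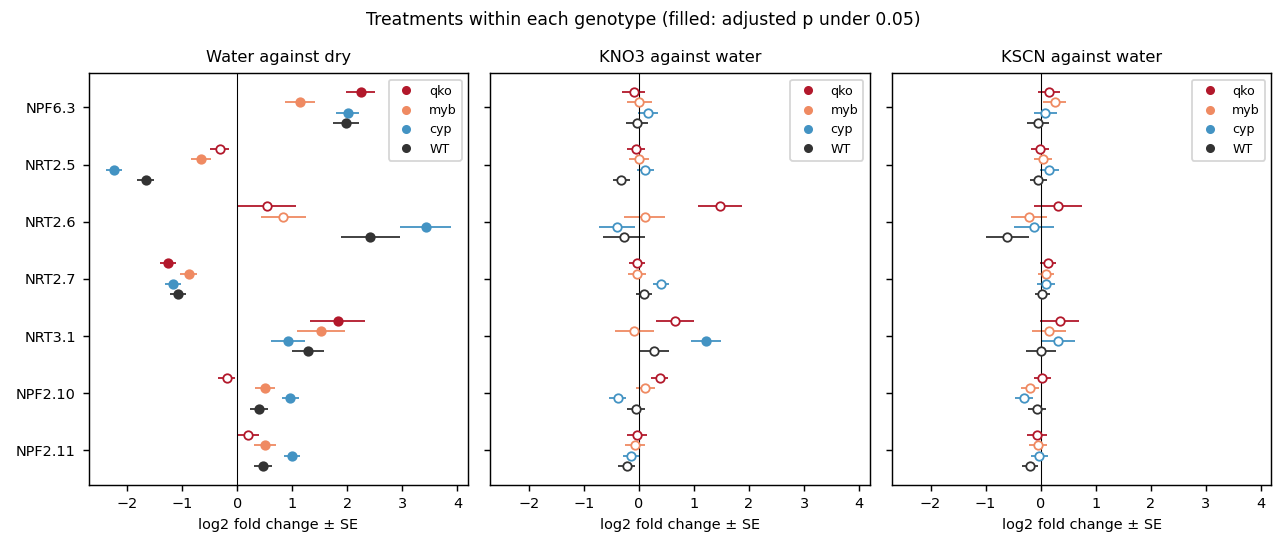
Log2 fold change with its SE for the 7 tested carrier genes, for water against dry seeds, KNO3 against water and KSCN against water, by labelled genotype. Filled points passed an adjusted p of 0.05 under TMM scaling. Imbibition moved most of them, and NRT3.1 in cyp with KNO3 (1.22) is the filled point under the salts. Under total-count scaling NRT2.5 in qko and myb and NPF2.10 in qko turn positive in the left panel.

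Mutant seeds were compared with WT in the dry state and after water, and both sets of comparisons share the WT libraries. In dry seeds 1 of the 7 carriers was higher and 4 lower in qko, where 49% of all loci passed (25.4% higher and 23.5% lower). In dry myb 1 was higher and 3 lower, where 38% passed (20.6% higher and 17.3% lower), and in dry cyp 1 was higher and 2 lower, where 29.4% passed (16.1% higher and 13.4% lower). After water 1 was higher and 5 lower in qko, where 50.7% passed (25.8% higher and 24.9% lower), and 2 were higher and 3 lower in myb, where 35.6% passed (17.9% higher and 17.7% lower). In cyp 4 were higher and 2 lower after water, where 63.1% passed (31.2% higher and 31.9% lower). Under total-count scaling the dry split became 2 higher and 3 lower in myb and 4 higher and 1 lower in cyp. The median log2 fold change of all loci then moved to 0.14 in dry myb, 0.41 in dry cyp and 0.36 in cyp after water, against 0.01, 0.03 and 0.00 under TMM scaling.

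NRT3.1, the partner that most NRT2 carriers need, was lower than in WT in all 3 mutants, dry and imbibed. Dry seeds had 1.01, 0.343 and 0.690 CPM in qko, 2.19 and 1.19 CPM in myb, 3.87, 4.88 and 4.30 CPM in cyp, and 8.87, 7.03 and 8.96 CPM in WT. Every mutant library lay below every WT library, in the order qko, myb, cyp, with no overlap between these 3. The log2 fold changes against WT were -3.60 ± 0.45 in qko (adjusted p = 2.64e-08), -2.30 ± 0.44 in myb (adjusted p = 6.47e-05) and -0.93 ± 0.32 in cyp (adjusted p = 0.0281). After water NRT3.1 had 1.84, 2.47 and 2.94 CPM in qko, 5.39, 4.72 and 4.35 CPM in myb, 7.93, 10.7 and 6.04 CPM in cyp, and 18.8, 16.7 and 25.2 CPM in WT. The same order held without overlap, with log2 fold changes of -3.06 ± 0.32 in qko, -2.07 ± 0.29 in myb and -1.30 ± 0.28 in cyp (adjusted p 5.76e-10, 8.06e-07 and 0.000131). The dry cyp call was lost without replicate 7 or 9 of dry cyp or replicate 5 or 9 of dry WT (adjusted p 0.0668 to 0.0914), and under total-count scaling (-0.55, adjusted p = 0.141). The dry qko values rest on 5 to 14 counts per library.

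NRT2.7, the most abundant carrier, was higher in qko and lower in cyp-labelled seeds than in WT. Dry seeds had 1861, 1811 and 1804 CPM in qko, 998 and 923 CPM in myb, 437, 467 and 483 CPM in cyp, and 811, 834 and 822 CPM in WT. The 4 genotypes did not overlap, and the change against WT was 1.15 ± 0.14 in qko (adjusted p = 3.01e-08), 0.22 ± 0.16 in myb (adjusted p = 0.282) and -0.83 ± 0.14 in cyp (adjusted p = 3.43e-05). The dry myb change passed with the groups fitted alone and under total-count scaling (0.22 and 0.36, adjusted p 0.0269 and 0.0447). After water the values were 829, 691 and 771 CPM in qko, 526, 553 and 482 CPM in myb, 196, 235 and 189 CPM in cyp, and 379, 369 and 426 CPM in WT. These 4 groups also stayed apart, at 0.96 ± 0.14 in qko, 0.41 ± 0.14 in myb and -0.92 ± 0.14 in cyp (adjusted p 8.59e-07, 0.0235 and 1.19e-06). The myb call in water was lost without replicate 6 or 7 of myb in water or WT replicate 5 or 8 in water (adjusted p 0.0589 to 0.0889).

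NRT2.5 differed between genotypes in dry seeds. Dry seeds had 4.86, 4.05 and 4.69 CPM in qko, 5.30 and 6.00 CPM in myb, 18.02, 16.6 and 17.2 CPM in cyp, and 14.3, 14.8 and 14.7 CPM in WT. It was lower in qko (-1.69 ± 0.16, adjusted p = 5.53e-11) and myb (-1.37 ± 0.18, adjusted p = 1.27e-07). In cyp all dry libraries lay above those of WT, but the change of 0.24 ± 0.14 did not pass (adjusted p = 0.211), and it did pass under total-count scaling (0.62, adjusted p = 0.000506) and with the groups fitted alone (adjusted p = 0.0243). After water the means were 3.62 ± 0.44 CPM in qko, 3.58 ± 0.50 in myb, 3.65 ± 0.18 in cyp and 4.59 ± 0.36 in WT (SD, n = 3 each). None of the water comparisons passed (-0.34, -0.35 and -0.33 for qko, myb and cyp, adjusted p 0.0741, 0.0808 and 0.0661), though the myb one did without myb water replicate 9 (-0.47, adjusted p = 0.0366). The cyp one passed when the groups were fitted alone (-0.32, adjusted p = 0.0489), while under total-count scaling it was 0.0397, on the other side of 0.

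NRT2.6 was higher in myb than in WT in both states. Dry seeds had 1.16, 0.618 and 0.759 CPM in qko, 3.45 and 3.56 CPM in myb, 0.477, 0.333 and 0.727 CPM in cyp, and 0.715, 0.355 and 0.364 CPM in WT. The myb libraries stood above all others (2.86 ± 0.57, adjusted p = 0.000129), and qko and cyp overlapped WT. After water it had 0.858, 1.38 and 1.43 CPM in qko, 7.31, 5.57 and 5.91 CPM in myb, 6.77, 4.51 and 5.28 CPM in cyp, and 3.23, 2.55 and 1.96 CPM in WT. Both double mutants were above WT (1.28 ± 0.35 in myb, adjusted p = 0.00448, and 1.10 ± 0.35 in cyp, adjusted p = 0.00683), while qko was below it (-1.08 ± 0.41, adjusted p = 0.0275). The qko call was lost when qko water replicate 4, or WT water replicate 5 or 8, was left out (adjusted p 0.0505 to 0.117). It was also lost with a replicate block (adjusted p = 0.0514), although qko and WT share no replicate number in water.

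The sensor NPF6.3 was highest in the cyp-labelled seeds. Dry seeds had 2.39, 1.58 and 1.38 CPM in qko, 3.51 and 2.94 CPM in myb, 5.35, 5.65 and 6.20 CPM in cyp, and 3.65, 2.84 and 3.13 CPM in WT. Libraries of cyp lay above WT (0.84 ± 0.25, adjusted p = 0.0112) and those of qko below it (-0.85 ± 0.31, adjusted p = 0.0205), while myb overlapped WT (0.01, adjusted p = 1). After water the values were 9.56, 8.70 and 7.01 CPM in qko, 7.14, 6.71 and 7.36 CPM in myb, 22.2, 22.6 and 24.2 CPM in cyp, and 12.9, 11.2 and 13.7 CPM in WT. No mutant overlapped WT, and the change was -0.58 ± 0.20 in qko, -0.83 ± 0.20 in myb and 0.87 ± 0.19 in cyp (adjusted p 0.017, 0.00161 and 0.000215). The dry qko call was lost without replicate 6 or 7 of dry qko, replicate 5 of dry WT, or all 4 libraries of qko replicate 7 (adjusted p 0.0696 to 0.0971). Those of dry cyp and of qko in water were lost without replicate 8 of dry WT (adjusted p = 0.0522), and without qko water replicate 7 or WT water replicate 9 (adjusted p 0.0909 and 0.0621).

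Of the glucosinolate importers, NPF2.11 was lower in qko and myb than in WT in both states and higher in cyp after water, while NPF2.10 differed from WT after water in qko and cyp. In dry seeds NPF2.11 had 2.54, 2.33 and 1.93 CPM in qko, 2.85 and 3.06 CPM in myb, 6.47, 8.15 and 7.71 CPM in cyp, and 5.51, 6.82 and 5.97 CPM in WT. It was lower in qko (-1.43 ± 0.19, adjusted p = 8.29e-08) and myb (-1.04 ± 0.20, adjusted p = 9.87e-05), and cyp overlapped WT (0.29 ± 0.16, adjusted p = 0.19; 0.66 and adjusted p = 0.0012 under total-count scaling). After water it had 3.04, 3.18 and 1.56 CPM in qko, 4.41, 4.11 and 4.11 CPM in myb, 17.0, 13.8 and 13.8 CPM in cyp, and 8.21, 8.51 and 8.55 CPM in WT. The 4 groups did not overlap, and the change was -1.69 ± 0.16 in qko, -0.9997 ± 0.16 in myb and 0.82 ± 0.14 in cyp (adjusted p 1.01e-10, 3.52e-06 and 8.61e-06).

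NPF2.10 in dry seeds stood at 25.4 ± 1.8 CPM in qko, 25.0 ± 0.86 in cyp and 22.5 ± 1.5 in WT (SD, n = 3 each) and 24.6 and 24.3 CPM in the 2 myb libraries. No dry comparison passed (log2 fold changes 0.18, 0.12 and 0.15 for qko, myb and cyp, adjusted p 0.395, 0.65 and 0.524), and under total-count scaling that of cyp did (0.53, adjusted p = 0.0112). After water it had 22.8, 25.6 and 18.2 CPM in qko, 30.0, 35.1 and 38.9 CPM in myb, 52.3, 43.6 and 50.3 CPM in cyp, and 29.5, 30.2 and 29.1 CPM in WT. It was higher in cyp (0.72 ± 0.15, adjusted p = 0.000137) and lower in qko (-0.42 ± 0.16, adjusted p = 0.0266), and myb overlapped WT (0.23, adjusted p = 0.264). The qko call was lost without replicate 7 of qko in water (-0.29, adjusted p = 0.165), without all 4 libraries of qko replicate 7 (adjusted p = 0.141), and without WT replicate 5 or 8 in water (adjusted p 0.0536 and 0.0635).

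**Figure D3:**
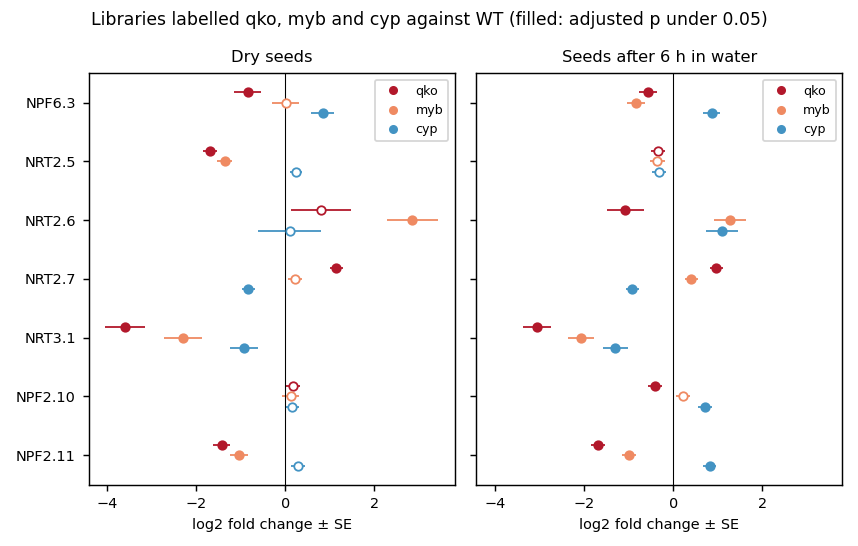
Log2 fold change with its SE of the 7 tested carrier genes in libraries labelled qko, myb and cyp against WT, in dry seeds and after 6 h in water. Filled points passed an adjusted p of 0.05. NRT3.1 lies below 0 in all 6 comparisons, from -3.60 to -0.93, and NRT2.7 lies above 0 in qko and below 0 in cyp.

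Without pairing by replicate number, KNO3 moved 1 of the 7 tested carrier genes, the partner NRT3.1 in cyp. With replicate number as a block, NRT2.6 passed in qko, and 4 carriers passed in cyp (2 higher and 2 lower). Over all loci 2284 then passed in cyp, against 358 without the block. The labels do not say if equal numbers mark pairs. Against water, KNO3 gave 1 higher and 0 lower carriers in cyp-labelled seeds, where 1.98% of all loci passed (1.14% higher and 0.841% lower), and none in qko, myb or WT, where 0% of all loci passed. At an unadjusted p under 0.05 the counts of carriers in KNO3 were 2 in qko, 0 in myb, 3 in cyp and 0 in WT, and those of all loci were 556, 291, 2928 and 366 in the same order. DESeq2 called 0 carriers in qko, myb and WT and 1 in cyp, and over all loci 1 in qko, 0 in myb, 511 in cyp and 2 in WT. KSCN, a thiocyanate salt, gave 0 calls among the carriers and 0% of all loci in each of the 4 genotypes. In myb the null over all loci depended on the fit. There 130 loci passed with these groups fitted alone (120 lower) and 180 without myb water replicate 9 (165 higher), with no carrier among them. Unadjusted, 0 carriers and 742, 2270, 339 and 173 loci in qko, myb, cyp and WT were under 0.05 for KSCN, and DESeq2 called 0 loci. None of the differences between a mutant's and WT's response to either salt passed for a carrier (0% of all loci in each). For KNO3 in cyp that null over all loci depended on the fit. The difference passed for 150 loci with a replicate block, 296 without replicate 6 of cyp in KNO3 and 7 in DESeq2, with no carrier among them. Under an unadjusted 0.05 stood 1 carrier for KNO3 in qko (NRT2.6), beside 530 of all loci, and 1 in cyp (NRT3.1), beside 1059. DESeq2 called no carrier.

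In the fit without pairing, NRT3.1 passed in cyp-labelled seeds. It had 9.94, 18.8 and 28.6 CPM in KNO3 (replicates 6, 7 and 8), against 7.93, 10.7 and 6.04 CPM in water (replicates 7, 8 and 9), with an overlap at the low end (log2 fold change 1.22 ± 0.28, adjusted p = 0.012). The call was lost without replicate 7 or 8 of KNO3 or replicate 7 or 9 of water (adjusted p 0.0553 to 0.419), without the 3 imbibed libraries of replicate 8 (1.04, adjusted p = 0.113), and when the fit held these groups alone (adjusted p = 0.559). In WT it had 17.9, 37.9 and 17.6 CPM in KNO3 (replicates 5, 6 and 8), against 18.8, 16.7 and 25.2 CPM in water (0.27 ± 0.27, adjusted p = 1). The value in WT was -0.19 without replicate 6 of KNO3, the library that stood apart.

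NRT2.6 in qko had the largest fold change of a carrier in KNO3. It had 3.21, 2.66 and 4.42 CPM in KNO3, against 0.858, 1.38 and 1.43 CPM in water (replicates 4, 6 and 7 in both), and the groups did not overlap. The log2 fold change was 1.48 ± 0.40 and missed the threshold (adjusted p = 1). With replicate number as a block it was 1.47 and passed (adjusted p = 0.0345), as 1 of 2 loci of the whole table. The labels do not say that equal numbers mark pairs. The highest value in KNO3 was that of replicate 7, which stood apart and had the lowest total of all libraries (18097331 estimated counts). In cyp-labelled seeds NRT2.6 had 7.47, 2.69 and 2.34 CPM in KNO3, against 6.77, 4.51 and 5.28 CPM in water, and in WT it had 3.35, 0.726 and 2.31 CPM in KNO3, against 3.23, 2.55 and 1.96 CPM in water. Neither passed (-0.40 and -0.27, adjusted p 0.572 and 1). Without replicate 6 of cyp in KNO3, 4 carriers passed in cyp: the change was 0.60 for NRT2.7, -1.13 for NRT2.6 and -0.65 for NPF2.10 (adjusted p 0.00213, 0.0189 and 0.00323), beside NRT3.1.

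Within the KNO3 groups of WT and cyp the libraries differed in these 2 genes. Replicate 6 of WT held the highest NRT3.1 and the lowest NRT2.6 of its group, and also the highest level of 2 nitrate assimilation genes, the nitrite reductase NIR1 (1200 CPM, with 665 and 685 CPM in replicates 5 and 8) and the nitrate reductase NIA1 (516 CPM, with 305 and 254 CPM). Replicate 8 of cyp in KNO3 showed the same for NRT3.1, NRT2.6, NIR1 (1645 CPM, with 543 and 1014 CPM in replicates 6 and 7) and NIA1 (1011 CPM, with 384 and 613 CPM). For NRT2.6, replicate 8 of cyp (2.34 CPM) lay near replicate 7, while replicate 6 had 7.47 CPM. For replicates 6 and 8 of cyp in KNO3 the distance over all tested loci was 1.24 times that among the other libraries of the group. NRT3.1, NRT2.6, NIR1 and NIA1 were set beside each other after their values were seen, and what differed between the libraries was not tested.

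**Figure D4:**
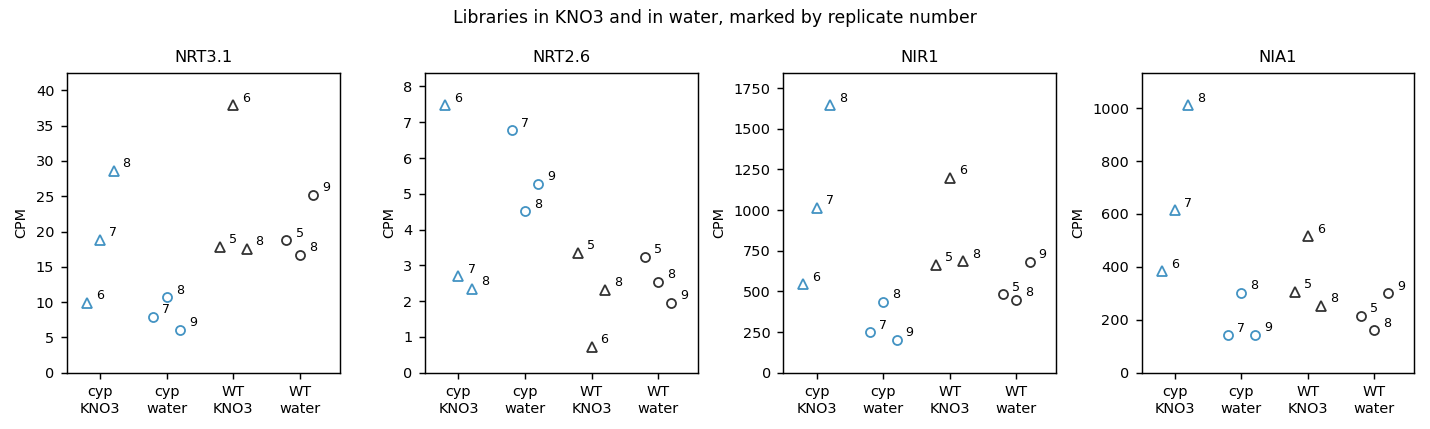
CPM of NRT3.1, NRT2.6, NIR1 and NIA1 in the libraries labelled cyp and in WT, in KNO3 and in water, with replicate numbers beside the points. Replicate 8 of cyp and replicate 6 of WT hold the highest NRT3.1 of their KNO3 groups (28.6 and 37.9 CPM) and the lowest NRT2.6 (2.34 and 0.726 CPM).

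Other genes of nitrate and glucosinolate handling were counted from 4 lists, whose counts are to be read against the share of all loci that passed. Of 22 other nitrate carriers and channels 12 could be tested, of 6 genes of nitrate and nitrite reduction all 6, of 19 nitrate regulators 17, and of 4 other glucosinolate carriers 1. The 6 reduction genes include RFNR1, RFNR2 and UPM1, which are not themselves nitrate or nitrite reductases. After water in WT, 6 of the 12 carriers were higher and 4 lower than in dry seeds, all 6 reduction genes were higher, and 12 of the 17 regulators were higher and 4 lower, where 70.6% of all loci passed (37.1% higher and 33.5% lower). NRT1.8 (NPF7.2), which retrieves nitrate from the xylem sap, fell to 349 ± 21 CPM in WT after water, against 2318 ± 111 CPM in dry WT seeds (SD, n = 3 each; log2 fold change -2.73, adjusted p = 3.32e-16). NRT1:2 (NPF4.6), a nitrate carrier that also imports abscisic acid, rose to 32.7 ± 4.2 CPM, against 1.48 ± 0.45 CPM in dry WT seeds (4.46, adjusted p = 7.49e-19).

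In qko after water against WT, 4 of the 12 other carriers were higher and 4 lower, and 2 of the 6 reduction genes were higher and 4 lower, where 50.7% of all loci passed. NRT1.5 (NPF7.3), which loads nitrate into the xylem, had 0.101 ± 0.028 CPM in qko and 2.66 ± 0.38 CPM in WT (adjusted p = 1.71e-13). The qko value lies below the floor of 3 counts in a library (0.129 CPM there). The anion channel SLAH3 had 4.69 ± 0.89 CPM in qko and 0.194 ± 0.045 CPM in WT (adjusted p = 2.52e-13, SD and n = 3 each for both genes). In myb 3 of the 12 were higher and 3 lower, and 1 of the 6 reduction genes was higher and 3 lower, where 35.6% of all loci passed. In cyp-labelled seeds 4 of the 12 were higher and 6 lower, where 63.1% passed, and NRT1.8 had 26.7 ± 4.7 CPM, against 349 ± 21 CPM in WT (-3.71, adjusted p = 3.4e-18). UMAMIT30, the glucosinolate exporter that could be tested, was higher than in WT in qko, myb and cyp after water (12.5, 16.4 and 14.3 CPM, against 3.38 CPM in WT, adjusted p 0.000533, 9.11e-05 and 9.6e-05).

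KNO3 in cyp-labelled seeds gave 6 of 6 reduction genes, 5 of 17 regulators and 2 of 12 other carriers higher and none lower, beside NRT3.1 among the 7 tested loci, while in qko, myb and WT no gene of the lists passed. NIR1 averaged 1067 ± 553 CPM in KNO3 and 296 ± 124 CPM in water there (SD, n = 3 each; log2 fold change 1.85 ± 0.30, adjusted p = 0.000467), and NRT1:2 averaged 79.4 ± 14 CPM in KNO3 and 51.4 ± 11 CPM in water (0.63 ± 0.15, adjusted p = 0.0203). Over all loci the number called in this comparison was 358, but 0 when the fit held these groups alone and 72 to 2610 when 1 library was left out.

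The 16 groups were also ordered by mean CPM for each carrier. For NPF2.11 the 3 imbibed groups of cyp led and overlapped one another, WT in water came next without touching them, and qko groups stood last. In 11 of 15 neighbouring pairs of NPF2.11 and NPF6.3 the ranges overlapped, in 12 of 15 for NRT2.5 and NRT2.7, in 14 of 15 for NRT3.1, and in all 15 for NRT2.6 and NPF2.10. The same count was not made over all loci, so it cannot show that carriers differ in how sharply their groups part. The highest group mean was 35.8 times the lowest for NRT3.1, 14.4 times for NPF6.3, 14.05 times for NRT2.6, 8.85 times for NRT2.7, 6.55 times for NPF2.11, 4.99 times for NRT2.5 and 2.2 times for NPF2.10.

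The loci most like each carrier over the 16 group means of log2 CPM were found among 15299 tested loci. For NRT2.7 these were CPISCA and FDH, the formate dehydrogenase (Pearson r 0.99 each), for NPF2.11 BCA5, a carbonic anhydrase (0.99), and for NPF6.3 ALN, allantoinase, and SUVH3 (0.98 each). For NRT3.1 they were AT4G16360 (0.97) and SCL28 (0.96), for NRT2.5 AT1G05150 (0.96), for NPF2.10 TRXF1, a chloroplast thioredoxin (0.95), and for NRT2.6 AT3G23080 (0.92). The groups share their genotypes and the dry or imbibed state, so such values are a description of these 16 groups.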

How the data were processed

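RNA from entire seeds was sequenced as paired-end reads on DNBseq, per the labels' protocols. The authors deposited 1 table of estimated counts (expected counts) for 48268 transcripts, made with Salmon per the submitters' processing notes. For Salmon, the version, index and build were not given in the sources used here. A total of 41.6% of the values hold decimals and none are scaled for depth. For each locus the values of its transcripts were added up and rounded, a step without coordinates. Exon coordinates of the reference annotation gave the transcript lengths, and the reference transcript sequences in which shared 31-base stretches were counted. NRT3.1 has 3 listed transcripts and the other 9 loci 1 each. Groups follow the labels.

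Tests used edgeR 4.0.16 in R 4.3.3 (quasi-likelihood F tests, 1 model of 45 libraries and 16 groups, TMM scaling). Loci with low counts were removed (minimum count 10, minimum total 15), which left 18066 of 27587, and p were adjusted by Benjamini-Hochberg over all of them within each of 27 comparisons, with calls under 0.05. SE was taken from the F statistic. CPM use TMM-scaled library sizes, and lengths per kb are those of the longest mRNA in the RefSeq annotation of TAIR10.1. The SD is between libraries, and the floor of 3 counts per library covers counting error only. The 10 loci, the lists and the rule for named genes (all 10 loci, and up to 3 genes of a list with the largest change and at least 1 CPM) were chosen with earlier results of these data known; from the named list genes the text gives a part, and NRT1.8, NRT1:2 in WT and NIA1 by library were chosen after their values were seen.

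Within qko, deviations of same-numbered libraries from their group means correlated at 0.338 to 0.562 between KNO3 and water (3 pairs). Between KSCN and water they correlated at 0.371 to 0.625. Deviations within a group cancel out, so a single unlike library can give all 3 correlations, and replicate 7 stood apart in each imbibed qko group. Between KNO3 and water the values were 0.0895 and 0.496 in cyp, 0.189 and 0.236 in WT, and -0.0779 and 0.0608 in myb. Such values cannot show if equal numbers mark pairs, and the labels do not say it. Alternatives were RLE and total-count scaling, no filter, DESeq2 1.42.0, fits of the groups compared alone, NRT2.1 and NRT2.2 summed, a replicate block, and fits without replicate 7 of qko, without imbibed replicate 8 of cyp and without each of the 45 libraries. The block was replicate number within a genotype for treatments and for differences in response. For mutants against WT it was replicate number across genotypes. A planned motif count in promoters was not run.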

Additional observations from a re-analysis of the deposited data

Results flagged for a closer look

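The response of a mutant to imbibition differed from that of WT, by a test of the difference itself, for 2 of the 7 tested carriers. For NRT2.5 the log2 fold change from dry seeds to water differed from that of WT by 1.35 in qko (adjusted p = 2.43e-05), by 1.01 in myb (adjusted p = 0.00403) and by -0.57 in cyp (adjusted p = 0.0337). Dry seeds held 4.53 ± 0.43 CPM of NRT2.5 in qko, 17.3 ± 0.70 in cyp and 14.6 ± 0.26 in WT (SD, n = 3 each), and 5.30 and 6.00 CPM in the 2 myb libraries, and imbibed seeds of all 4 genotypes lay between 2.72 and 4.89 CPM. For NPF2.10 the difference was -0.59 in qko (adjusted p = 0.0491) and 0.57 in cyp (adjusted p = 0.0469). The NRT2.5 differences in qko and myb passed in every fit without 1 library, and those of NPF2.10 and of NRT2.5 in cyp did not.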

How the results depend on the processing

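Over 54 alternative settings, of which 45 leave out 1 library each, 2639 of 2891 values of single carrier genes kept their sign and their side of the threshold, 83 lost a call, 35 gained one, 131 changed sign with no call in either fit and 3 changed sign with a call in 1 of the 2 fits. Under total-count scaling the change from dry seeds to water turned for NPF2.10 in qko (0.53), NRT2.5 in myb (0.0225) and NRT2.5 in qko (0.40). The cause was not tested. Counts of carriers called moved by over 1.5 times as follows. With total-count scaling they were 5 for dry cyp against WT, 7 for imbibition in qko, and 1 each for the differences in response to water of cyp and of qko. Without the filter on low counts they were 1 and 1 for the same differences, and with RLE size factors 1 for that of qko. With the groups compared alone, the count was 0 for KNO3 in cyp and 3 for the difference in response of myb. With the replicate block it was 4 for KNO3 in cyp, 1 for KNO3 in qko and 2 for the difference in response of myb. Those in cyp included NRT2.7 (log2 fold change 0.53, adjusted p = 0.00421), NRT2.6 (-0.996, adjusted p = 0.0063) and NPF2.10 (-0.60, adjusted p = 0.00612). The labels do not say for any genotype that equal numbers mark pairs, so the block is an alternative setting and no known pairing. Without 1 library, or without the named replicate 7 or 8, counts ran from 0 to 4 for KNO3 in cyp, 3 to 6 for imbibition in myb, 0 to 3 for the difference in response of cyp and 1 to 2 for that of qko. Where dry myb keeps 1 library, that library is assumed to vary like the other groups. Depth limits NRT2.1, NRT2.2 and NRT2.4, which no fit with the filter could test, and NRT2.6 and NRT3.1 in dry seeds, with as few as 5 counts in a library.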

Other observations

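The few NRT2.1 counts lay mostly in libraries labelled cyp, where 8 of 11 libraries had a count, against 2 of 12 in qko, 2 of 10 in myb and 6 of 12 in WT. Without a filter on low counts NRT2.1 passed in no comparison; cyp against WT after water gave a log2 fold change of 1.77 (adjusted p = 0.258).

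Of the 6 genes on the list of nitrate and nitrite reduction, 2 were higher and 3 lower than in WT in dry qko. There 49% of all loci passed. Likewise 2 were higher and 3 lower in dry myb, where 38% passed. The 3 lower ones in both were the nitrate and nitrite reductase genes NIA1, NIR1 and NIA2. The higher ones in both were RFNR1 and UPM1, which are not nitrate or nitrite reductases. They had 107 and 118 CPM in qko, 65.0 and 111 CPM in myb, and 29.4 and 85.2 CPM in WT. In dry cyp-labelled seeds 4 of the 6 genes were higher than in WT and 0 lower, where 29.4% of all loci passed. NIA1 averaged 0.906 CPM in qko, 4.18 CPM in myb, 41.8 CPM in cyp and 15.2 CPM in WT (qko against WT, adjusted p = 1.8e-08 in edgeR). NIR1 had 26.8 ± 2.7 CPM in qko (SD, n = 3), 44.9 and 43.1 CPM in the 2 myb libraries and 194 ± 15 CPM in WT (SD, n = 3; qko against WT, adjusted p = 4.02e-09 in edgeR). NIA2 was 0.0471 CPM in qko, 0.995 and 0.125 CPM in the myb libraries and 6.75 CPM in WT. The qko value and the lower myb value lie below the floor of 3 counts in a library (0.210 and 0.193 CPM in dry qko and dry myb). The regulator at AT2G43500, listed as NLP8, averaged 72.8 ± 0.89 CPM in dry qko and 185 ± 6.5 CPM in dry WT (SD, n = 3 each; log2 fold change -1.34, adjusted p = 2.86e-09).

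Groups that did not overlap without passing the test in the salts, beside those given above, were NPF2.11 in KNO3 in myb and WT, NRT3.1 and NPF2.10 in KNO3 in qko, NPF2.11 in KSCN in WT, NRT2.5 in KSCN in cyp and NPF6.3 in KSCN in myb. The means of NPF2.11 were 7.21 ± 0.69 CPM in KNO3 and 8.42 ± 0.18 CPM in water in WT (SD, n = 3 each). Those of NPF2.10 were 28.7 ± 3.1 CPM in KNO3 and 22.2 ± 3.7 CPM in water in qko. In these comparisons 0% of all loci passed. With 2 or 3 libraries in a group, ranges can part without a change. The share of all loci whose groups part was not counted, so no effect of the salts is read from this list.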
